A study of Saccharomyces cerevisiae with 6 samples.

Results

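The peroxiredoxin and thioredoxin system of *Saccharomyces cerevisiae* was followed through 10 genes, namely the peroxiredoxin genes *TSA1*, *TSA2*, *AHP1*, *DOT5* and *PRX1*, the thioredoxin genes *TRX1*, *TRX2* and *TRX3*, and the thioredoxin reductase genes *TRR1* and *TRR2*. They were matched by symbol in the probe table of the array, and all 10 were found, out of 5449 yeast genes matched to a probe set. RNA came from BY4742, a haploid strain of the alpha mating type with the mutations *his3Δ1*, *leu2Δ0*, *lys2Δ0* and *ura3Δ0*, which every group carries. Cells grew for 24 h in YPD, a rich glucose medium, and were moved to YPD for a further 24 h with nystatin at 0.27 mg/L plus CdS QDs at 100 mg/L, with nystatin at 0.27 mg/L alone, or with neither (untreated control). Each group has 2 arrays, so the study has 6. CdS QDs are cadmium sulphide quantum dots, and nystatin is a polyene antifungal that makes yeast membranes leaky by way of their sterol. It was added as an aid to QD uptake. The doses are those of the labels, and the methods of the study give a slightly lower one for nystatin. No group with CdS QDs and without nystatin was analysed here, so what the QDs do by themselves and what they do together with nystatin cannot be told apart. According to the methods of the study the 2 arrays of a group were made from aliquots of RNA extract, so the p-values measure the spread between these arrays, which may be technical. As RNA came from whole cultures, a change shared by all cells and a larger one in some of them cannot be told apart either.

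Peroxiredoxins are enzymes that reduce hydrogen peroxide and organic hydroperoxides with a reactive cysteine. In many of them, though not in all, the oxidized cysteine is reduced by thioredoxin. Thioredoxin is reduced by thioredoxin reductase, and the reductase draws its electrons from NADPH. Yeast keeps a set of these proteins in the cytosol and another in the mitochondrial matrix. Trx1, Trx2, Trr1, Tsa1, Tsa2 and Ahp1 are cytosolic, Trx3, Trr2 and Prx1 are mitochondrial, and Dot5 is a peroxiredoxin of the nucleus. The transcription factors Yap1 and Skn7 drive several of the cytosolic genes after exposure to peroxide, and cytosolic thioredoxin also returns Yap1 to its inactive form. The comparisons ask how the genes of each compartment stood with nystatin plus CdS QDs and with nystatin alone, against untreated cells and against each other.

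With nystatin plus CdS QDs most cytosolic genes rose and the mitochondrial genes fell. Against the untreated control 5 of the 6 cytosolic genes rose, by between 0.17 (*TRX1*) and 0.91 (*AHP1*) log2 units, and the remaining one, *TSA2*, fell by 0.78. All 3 mitochondrial genes fell, *TRX3* by 0.26, *PRX1* by 0.42 and *TRR2* by 1.06, and the nuclear *DOT5* rose by 0.38. "Rose", "fell" and "changed" mean here a Benjamini-Hochberg adjusted p under 0.05 in a linear model over the 6 arrays (limma), adjusted over all 5498 *S. cerevisiae* probe sets. All 10 genes thus changed, but so did 75.4% of all probe sets. Of all probe sets 36.5% rose and 38.9% fell, against 6 and 4 of the 10 genes. The study set limits of 1 in either direction and a p under 0.01, taken here as a log2 fold change and as an unadjusted p, since its methods state neither. Of all probe sets 10.1% passed these limits, and of the 10 genes only *TRR2* did. On all 10 probe sets the arrays of the CdS QDs group and of the control group did not overlap, which was so for 87.5% of all probe sets.

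**Figure D1:**
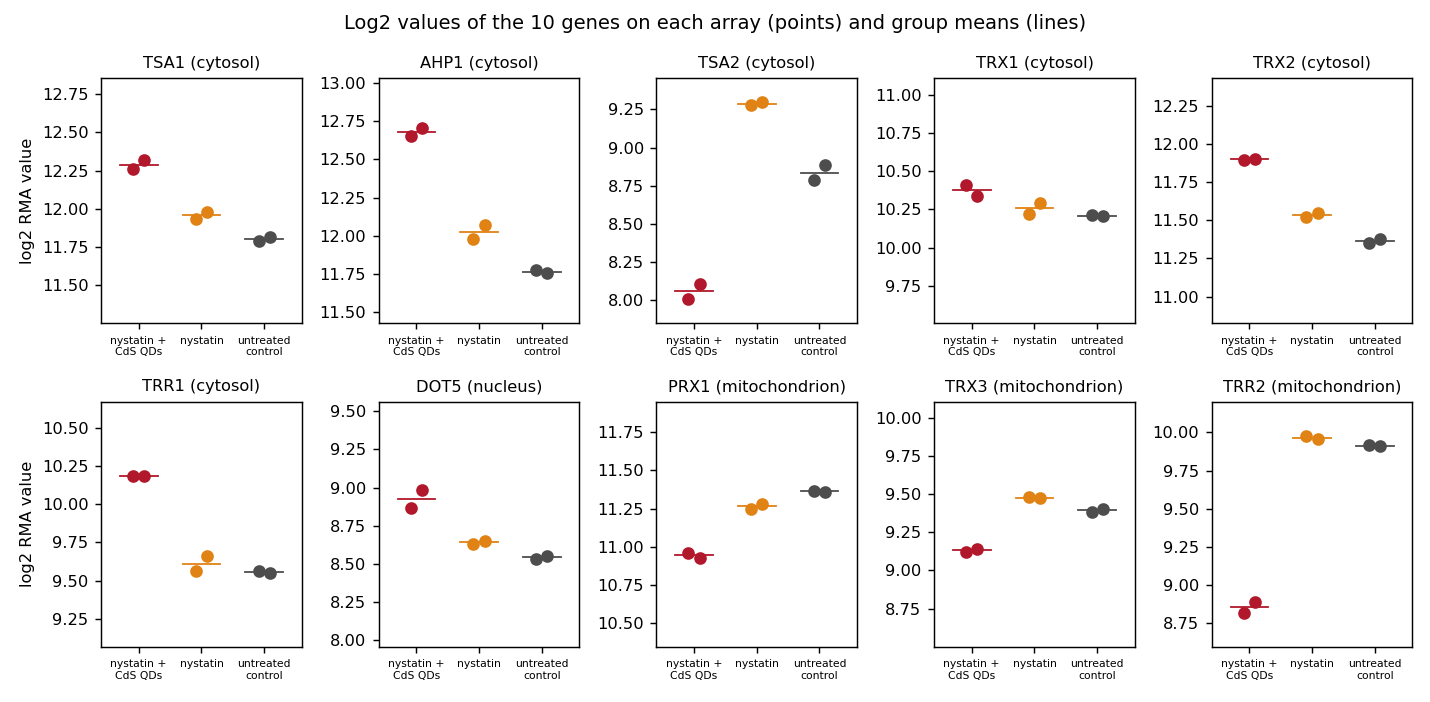
Log2 RMA values of the 10 genes in nystatin plus CdS QDs (red), nystatin (orange) and the untreated control (grey), with a point for each array and a line at the mean of the group; every panel spans 1.6 log2 units on an axis of its own. The red points are the highest in the panels of *TSA1*, *AHP1*, *TRX1*, *TRX2*, *TRR1* and *DOT5* and the lowest in those of *TSA2*, *PRX1*, *TRX3* and *TRR2*.

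Values are log2 RMA values as the authors deposited them, which are on 1 scale for all arrays, so that a difference of 1 is a 2-fold change. Each of the 10 genes is measured by 1 probe set, whose name ends in "_at" and not in "_s_at" or "_x_at", the endings given to probe sets shared between transcripts. Cross-hybridization between the related genes *TSA1* and *TSA2*, *TRX1* and *TRX2*, or *TRR1* and *TRR2* was not tested. As levels of different probe sets cannot be compared, only differences between arrays are given. All 10 genes lay far above the background (1.42 to 1.48 over the arrays). It was the 95th percentile of the probe sets taken as those of the fission yeast *S. pombe*.

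Among the cytosolic peroxiredoxin genes, *AHP1* was changed the most in the upward direction. Ahp1 prefers alkyl hydroperoxides. *AHP1* had 12.65 and 12.70 with nystatin plus CdS QDs, 11.98 and 12.07 with nystatin, and 11.77 and 11.76 in the untreated control. The 3 groups did not overlap, with the nystatin arrays between the others. The rise against the untreated control was 1.88-fold (0.91 log2 units with a standard error of 0.049, adjusted p = 4.99e-06), and 6.11% of all probe sets were raised further. Against nystatin alone *AHP1* rose by 0.66 (adjusted p = 2.42e-05).

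*TSA1* encodes the main peroxiredoxin of the yeast cytosol, which also acts as a chaperone. It had 12.26 and 12.32 with nystatin plus CdS QDs, 11.94 and 11.98 with nystatin, and 11.79 and 11.82 in the untreated control. The arrays of the 3 groups again lay apart in the same order. The rise was 1.40-fold against the untreated control (0.48 log2 units with a standard error of 0.045, adjusted p = 6.48e-05) and 1.26-fold against nystatin (0.33, adjusted p = 4.65e-04). As 17.6% of all probe sets were raised further against the untreated control, a change of this size was common on these arrays.

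*TSA2*, the close relative of *TSA1*, went the other way. It had 8.01 and 8.11 with nystatin plus CdS QDs, 9.28 and 9.30 with nystatin, and 8.79 and 8.88 in the untreated control. Its lowest values were thus those with CdS QDs and its highest those with nystatin alone, with no overlap between groups. With nystatin plus CdS QDs it fell by 0.78 on the log2 scale against the untreated control, 1.71-fold lower (standard error 0.055, adjusted p = 1.75e-05), and by 1.23 against nystatin, 2.34-fold lower (adjusted p = 2.34e-06). Only 3.27% of all probe sets were lowered further against nystatin. Within an array, the log2 difference *TSA2* minus *TSA1*, set to 0 at the mean of the controls, was −1.28 and −1.24 with nystatin plus CdS QDs, 0.31 and 0.29 with nystatin, and −0.035 and 0.035 in the untreated control.

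*DOT5* had 8.86 and 8.99 with nystatin plus CdS QDs, 8.63 and 8.65 with nystatin, and 8.53 and 8.55 in the untreated control. This nuclear peroxiredoxin gene therefore sided with the cytosolic ones and rose 1.30-fold (0.38 log2 units with a standard error of 0.053, adjusted p = 4.77e-04). Its probe set had the widest gap between the 2 CdS QDs arrays of the 10 genes (SD 0.086).

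Of the cytosolic thioredoxin genes, *TRX2* had 11.90 and 11.90 with nystatin plus CdS QDs, 11.52 and 11.55 with nystatin, and 11.35 and 11.38 in the untreated control. *TRX2* is a classical Yap1 target, and it rose 1.45-fold against the untreated control (0.53 log2 units with a standard error of 0.041, adjusted p = 2.52e-05) and 1.29-fold against nystatin (0.37, adjusted p = 1.74e-04). *TRX1*, whose protein does the same work, had 10.41 and 10.34 with nystatin plus CdS QDs, 10.22 and 10.30 with nystatin, and 10.21 and 10.20 in the untreated control. The groups did not overlap, but the CdS QDs and the nystatin arrays were as close as 10.34 and 10.30. The rise of *TRX1* against the untreated control was the smallest of the 10 changes (log2 fold change 0.17, 95% confidence interval 0.050 to 0.28, adjusted p = 0.0176), and 35.4% of all probe sets were raised further. It was also the least firm. Without nystatin plus CdS QDs replicate 1 the adjusted p was 0.0659, without untreated control replicate 1 it was 0.0705, and without untreated control replicate 2 it was 0.0778, and when all probe sets on the array were tested it was 0.0638. Against nystatin *TRX1* did not pass (0.12, interval 9.4e-05 to 0.23, adjusted p = 0.0650), and without nystatin plus CdS QDs replicate 2 it did (adjusted p = 0.0399).

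*TRR1*, for the cytosolic thioredoxin reductase, had 10.19 and 10.18 with nystatin plus CdS QDs, 9.56 and 9.66 with nystatin, and 9.56 and 9.55 in the untreated control. It was high only on the arrays with CdS QDs, while nystatin and control arrays were close together. It rose 1.55-fold against the untreated control (0.63 log2 units with a standard error of 0.048, adjusted p = 2.52e-05) and 1.49-fold against nystatin (0.57, adjusted p = 4.12e-05).

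The mitochondrial counterpart *TRR2* showed the largest change of the 10 genes against the untreated control, in the opposite direction. It had 8.82 and 8.89 with nystatin plus CdS QDs, 9.98 and 9.96 with nystatin, and 9.91 and 9.91 in the untreated control. Nystatin and control arrays lay within 0.1 of each other and the CdS QDs arrays more than 1 log2 unit below them. The fall was 2.08-fold against the untreated control (−1.06 on the log2 scale with a standard error of 0.045, adjusted p = 1.73e-06) and 2.16-fold against nystatin (−1.11, adjusted p = 1.44e-06), and 4.66% and 3.87% of all probe sets were lowered further.

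*PRX1* encodes the peroxiredoxin of mitochondria. It had 10.96 and 10.93 with nystatin plus CdS QDs, 11.25 and 11.28 with nystatin, and 11.36 and 11.36 in the untreated control. The groups were separate, with the CdS QDs arrays lowest and the control arrays highest. *PRX1* fell 1.34-fold against the untreated control (−0.42 log2 units with a standard error of 0.042, adjusted p = 9.39e-05) and 1.25-fold against nystatin (−0.32, adjusted p = 3.77e-04).

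*TRX3*, for the mitochondrial thioredoxin, had 9.12 and 9.14 with nystatin plus CdS QDs, 9.48 and 9.47 with nystatin, and 9.38 and 9.40 in the untreated control. Here the highest arrays were those with nystatin alone. The fall was 1.20-fold against the untreated control (−0.26 log2 units with a standard error of 0.041, adjusted p = 8.81e-04) and 1.27-fold against nystatin (−0.35, adjusted p = 2.25e-04). Falls of this size were common, as 29.9% of all probe sets were lowered further than *TRX3* and 20.4% further than *PRX1*.

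**Figure D2:**
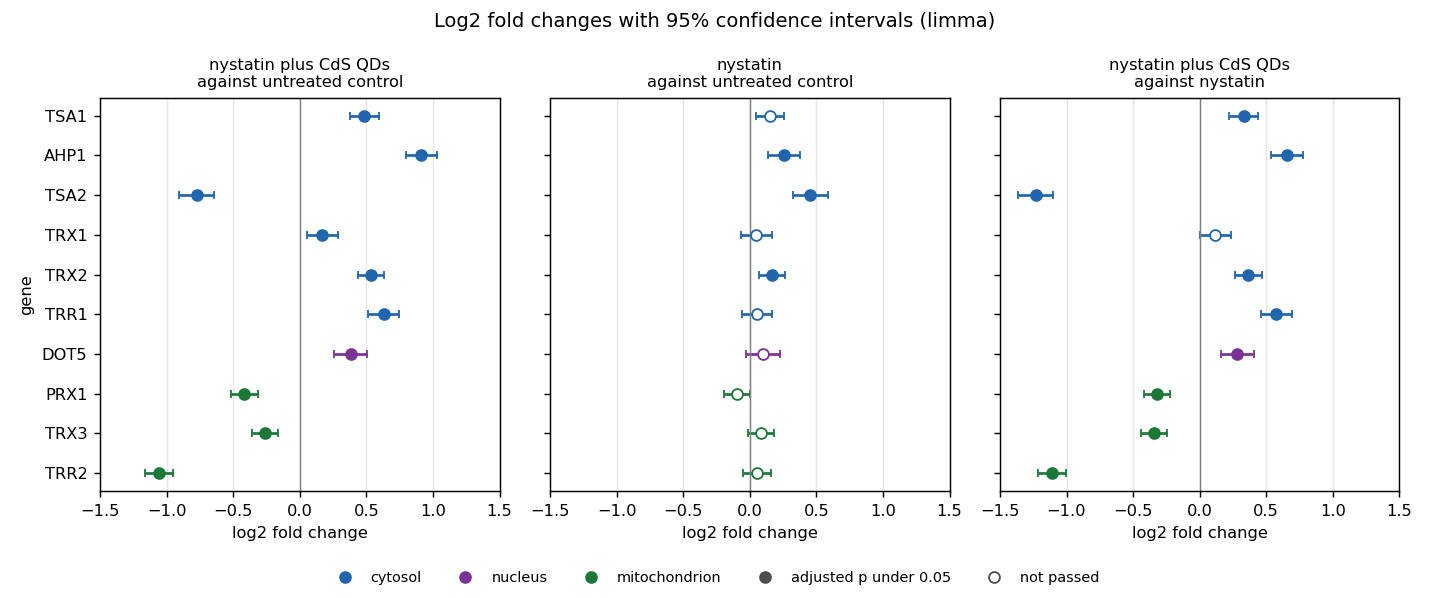
Log2 fold changes of the 10 genes (points) with 95% confidence intervals (bars) from limma in the 3 comparisons, coloured by compartment, with filled points at an adjusted p under 0.05 and open points above it. In the first panel *TSA1*, *AHP1*, *TRX1*, *TRX2*, *TRR1* and *DOT5* lie right of 0 and *TSA2*, *PRX1*, *TRX3* and *TRR2* left of it, and in the middle panel 3 points are filled.

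Nystatin alone moved the 10 genes little. Against the untreated control *TSA2* rose by 0.45 (1.37-fold, standard error 0.055, adjusted p = 0.00422), *AHP1* by 0.26 (1.19-fold, standard error 0.049, adjusted p = 0.0149) and *TRX2* by 0.17 (1.12-fold, standard error 0.041, adjusted p = 0.0318). No other gene passed, and at an unadjusted p under 0.05 there were 4 of the 10, since *TSA1* was at 0.15 (adjusted p = 0.0543). Of all probe sets 21.8% passed, 10.4% upward and 11.4% downward, so that 3 of 10 is near the share of all with both directions together. All 3 rose, a larger share than the 10.4%, and with 10 genes this difference was not tested. *TSA2* stood out more by its size, as only 0.855% of all probe sets were raised further. The 3 mitochondrial genes were at −0.096 (*PRX1*, interval −0.20 to 0.0039), 0.083 (*TRX3*, −0.014 to 0.18) and 0.054 (*TRR2*, −0.052 to 0.16). *TRR1* was at 0.055 (−0.060 to 0.17), *TRX1* at 0.050 (−0.067 to 0.17) and *DOT5* at 0.10 (−0.025 to 0.23). Although the arrays of all 10 genes did not overlap between the nystatin and the control groups, this was so for 70.1% of all probe sets.

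The calls with nystatin rested on few arrays. *TSA2* kept its call without each array in turn, and lost it without moderation of the variance (adjusted p = 0.0635) and when all probe sets on the array were tested (0.0577). *AHP1* lost it without untreated control replicate 1 (0.0979), untreated control replicate 2 (0.0926) or nystatin replicate 2 (0.0986), without moderation (0.0830) and with all probe sets (0.0920). *TRX2* lost it without any 1 of the control and nystatin arrays (0.103 to 0.172) and with all probe sets (0.117). *TSA1*, in turn, passed without either of the CdS QDs arrays (0.0385).

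Between the groups with and without CdS QDs, both with nystatin, 5 of the 10 genes rose, 4 fell and *TRX1* did not pass, where 75.0% of all probe sets passed, 36.7% upward and 38.3% downward. The arrays of all 10 genes lay apart, as did those of 87.4% of all probe sets. The 4 that fell were *TSA2*, *TRR2*, *TRX3* and *PRX1*. The 3 comparisons share their arrays, so that none gives independent support to another. *TSA2* and *TRR2* fell past the limits of the study here, which 9.53% of all probe sets passed.

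**Figure D3:**
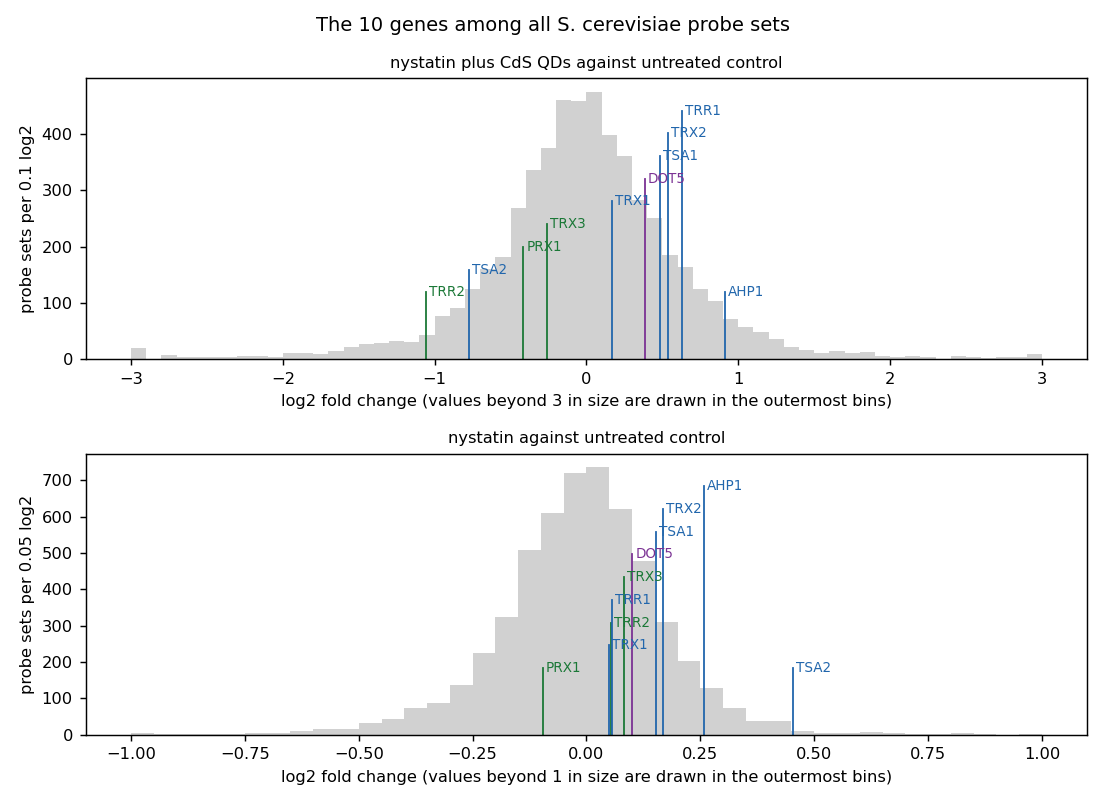
Histograms of the log2 fold changes of all 5498 *S. cerevisiae* probe sets (grey) against the untreated control, with nystatin plus CdS QDs above and nystatin below, and lines at the 10 genes coloured as cytosolic (blue), nuclear (purple) or mitochondrial (green); the lower axis is narrower and the heights of the lines only separate the labels. In the upper histogram *AHP1* at 0.91 and *TRR2* at −1.06 are the outermost of the 10 genes, and in the lower one *TSA2* at 0.45 is the farthest right of them.

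Set side by side by compartment, the median log2 fold change of nystatin plus CdS QDs over untreated cells was 0.51 over the 6 cytosolic genes and −0.42 over the 3 mitochondrial genes, where the median of all probe sets was −0.014. Per array, relative to the mean of the controls, the cytosolic median was 0.49 and 0.52 with nystatin plus CdS QDs, 0.14 and 0.18 with nystatin, and −0.0039 and 0.0039 in the untreated control. The mitochondrial median was −0.40 and −0.43 with nystatin plus CdS QDs, 0.064 and 0.044 with nystatin, and 0.0019 and −0.0019 in the untreated control. The cytosolic minus the mitochondrial median was therefore 0.93 with nystatin plus CdS QDs and 0.11 with nystatin, both against the untreated control, and 0.69 between the groups with and without CdS QDs. These are descriptions of 6 and 3 genes, with no test. *TSA2* is the cytosolic gene that did not share the direction of its compartment.

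The genes for proteins of the same kind in the 2 compartments can be set against each other within an array. The log2 difference *TRR2* minus *TRR1*, relative to the mean of the controls, was −1.72 and −1.65 with nystatin plus CdS QDs, 0.059 and −0.061 with nystatin, and −0.0024 and 0.0024 in the untreated control. The mitochondrial reductase transcript was hence lowered against the cytosolic one with CdS QDs, by −1.69 log2 units on average, and the mean with nystatin was −0.0011. *PRX1* minus *TSA1* was −0.86 and −0.95 with nystatin plus CdS QDs, −0.24 and −0.25 with nystatin, and 0.016 and −0.016 in the untreated control. *TRX3* minus *TRX2* was −0.80 and −0.79 with nystatin plus CdS QDs, −0.069 and −0.10 with nystatin, and 0.0020 and −0.0020 in the untreated control. *TRX3* minus *TRX1* was −0.47 and −0.38 with nystatin plus CdS QDs and 0.074 and −0.0084 with nystatin. In all 5 pairs, *TSA2* minus *TSA1* included, the arrays with CdS QDs lay below all others. In an exact two-sided permutation test the smallest p that 2 arrays against 2 allow is 0.333, and each of the 5 pairs reached it against the untreated control (adjusted p = 0.385 over 15 tests), so these differences could not pass a threshold.

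**Figure D4:**
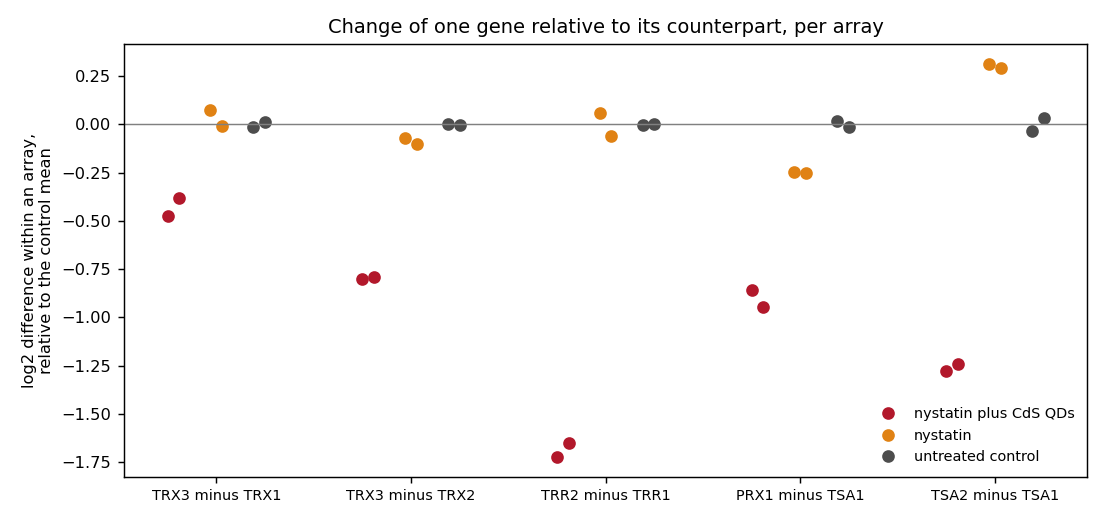
Log2 difference between the values of paired genes within each array, minus the mean of that difference on the control arrays, with a point for each array in nystatin plus CdS QDs (red), nystatin (orange) and the untreated control (grey). The red points of *TRR2* minus *TRR1* lie at −1.72 and −1.65, the lowest of the 5 pairs, and the nystatin points of *TSA2* minus *TSA1* at 0.31 and 0.29.

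Among themselves, the centred values of the 10 genes over the 6 arrays were most alike for *TSA1* and *TRX2* (Euclidean distance 0.065 log2 units), then for *TSA1* and *DOT5* (0.11), and the mitochondrial *PRX1* and *TRX3* were 0.20 apart. The nearest gene to *TSA2* was *TRR2* (0.42), and the farthest apart were *AHP1* and *TRR2* (2.17). Over all other genes, *AHP1* was followed most closely by *TUF1* (0.053), for the elongation factor Tu of mitochondria, *MRPL23* (0.069), for a mitochondrial ribosomal protein, and *YNL058C* (0.069). *TRR1* was followed by *RUB1* (0.048), for a ubiquitin-like protein, *CHO2* (0.053), of phosphatidylcholine synthesis, and *SCS22* (0.065), and *TRX2* by *OLA1* (0.057), *MST1* (0.060), for a mitochondrial tRNA synthetase, and *ERT1* (0.061). *TSA2* had no such close companion. The nearest were *ERG24* (0.14), of ergosterol synthesis, which was at −0.74 with nystatin plus CdS QDs and at 0.36 with nystatin, and *GPM2* (0.17) and *YML003W* (0.22). *TRR2* was followed by *CLB1* (0.061), a cyclin gene, *PEP7* (0.077) and *GAL7* (0.083), of galactose use.

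Of the 20 protein-coding genes next to the 10 on their chromosomes, 19 were measured. When nystatin plus CdS QDs was compared with untreated cells, 8 changed in the direction of the gene they adjoin, 6 in the opposite direction and 5 did not pass, a share of changed genes near the 75.4% of all probe sets. Both neighbours of *TRR1*, *YPQ2* and the tryptophan synthesis gene *TRP4*, fell (−0.57 and −0.97) where *TRR1* rose. *YPT35*, next to *TRR2*, fell by 0.84, and its other neighbour, the septin gene *CDC12*, did not pass (−0.082).

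The linked lists that follow are to be read against the 36.5% of all probe sets that rose and the 38.9% that fell in the same comparison. Of 7 genes of Yap1 sensing and sulfiredoxin, 4 fell, 1 rose and 2 did not pass when cells with nystatin plus CdS QDs were set against untreated cells (median −0.36). With 7 genes, these counts are not far from the shares of all probe sets. *SKN7* fell by 0.78 (adjusted p = 8.12e-06), *YAP1* by 0.60 (7.58e-05), *YBP1*, for the partner protein of Yap1, by 0.59 (5.42e-04) and *HYR1*, for the peroxidase that oxidizes Yap1, by 0.36 (3.80e-04). *SRX1*, for sulfiredoxin, which repairs overoxidized Tsa1, rose by 0.15 (adjusted p = 0.0358), whereas with nystatin alone it fell by 0.29 (adjusted p = 0.0127). *CRM1*, for the exporter of Yap1, was at 0.068 and *PSE1*, for its importer, at 0.016.

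Of 12 other targets of Yap1, 9 rose, 2 fell and 1 did not pass (median 0.29), where 36.5% of all probe sets rose and 38.9% fell. *OYE3*, for an NADPH oxidoreductase of the old yellow enzyme kind, rose by 2.54 (adjusted p = 3.86e-07), *GPX2*, for a peroxidase that uses thioredoxin, by 1.70 (7.49e-07), *GTT2*, for a glutathione transferase, by 1.42 (5.02e-07), *OYE2* by 0.83 (5.81e-06) and *FLR1*, for a drug exporter, by 0.81 (5.74e-06). *GLR1*, for the glutathione reductase, rose by 0.35 (5.54e-04). *ECM4*, for a glutathione transferase, fell by 0.89 (5.79e-06) and *YCF1*, for the vacuolar pump of glutathione conjugates, by 0.18 (0.00646).

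Of 10 genes for enzymes that draw on thioredoxin, 3 rose, 6 fell and 1 did not pass (median −0.45), beside 36.5% and 38.9% of all probe sets. Ribonucleotide reductase, a main client of thioredoxin, has its subunits encoded by *RNR1*, which rose by 0.76 (adjusted p = 4.25e-05), and by *RNR2*, *RNR3* and *RNR4*, which fell (−1.34, −1.54 and −0.55). *MET16*, for the PAPS reductase of sulphate assimilation, rose by 0.93 (1.02e-05). Of the methionine sulfoxide reductases, the mitochondrial *MXR2* fell by 0.57 (1.96e-04) and the cytosolic *MXR1* was at −0.089 (adjusted p = 0.0931). *GPX1*, a peroxidase gene that belongs to the general stress genes too, fell by 0.95 (5.65e-06), the other way from *GPX2*.

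The reductases need NADPH, and of 14 genes that supply it 3 rose, 7 fell and 4 did not pass (median −0.14), which is near the 75.4% of all probe sets that changed. *GND1*, for the major 6-phosphogluconate dehydrogenase of the pentose phosphate pathway, rose by 1.30 (adjusted p = 1.33e-06) and *SOL3* and *TKL1* of the same pathway by 0.36 and 0.35, whereas *GND2*, the minor form, fell by 0.98 (6.06e-06) and *ZWF1*, for the first enzyme of the pathway, was at −0.0077 (adjusted p = 0.875). In mitochondria, *POS5*, for the NADH kinase that makes most of the mitochondrial NADPH, fell by 0.67 (1.22e-05) and *IDP1*, for an isocitrate dehydrogenase, by 0.57 (8.57e-05). The peroxisomal *IDP3* fell by 2.61 (1.24e-07).

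Among 9 other mitochondrial redox genes, 3 rose, 3 fell and 3 did not pass (median 0.051), near the 36.5% and 38.9% of all probe sets. *POS5*, *MXR2* and *SOD2*, for the matrix superoxide dismutase (−0.51, adjusted p = 1.00e-04), fell like *PRX1*, *TRX3* and *TRR2*. *ERV1*, a thiol oxidase gene of the intermembrane space, and *GRX5*, for a glutaredoxin of iron-sulphur cluster assembly, rose by 0.28 and 0.31, and *GRX2* by 0.13, while *CCP1*, for cytochrome c peroxidase, was at 0.097 (adjusted p = 0.117). Of 16 general stress genes under Msn2 and Msn4, 6 rose and 10 fell (median −0.21), where 36.5% of all probe sets rose and 38.9% fell, with the cytosolic catalase gene *CTT1* lowest at −2.96 (8.76e-08) and the chaperone gene *HSP78* highest at 0.35 (4.96e-04).

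With nystatin alone the same lists moved less. Of the 7 sensing genes none rose and 2 fell, of the 12 Yap1 targets 2 rose and 1 fell, of the 10 enzymes that use thioredoxin 1 rose and 1 fell, of the 14 NADPH genes 4 rose and 4 fell, of the 9 mitochondrial genes 1 rose and 1 fell, and of the 16 stress genes 1 rose and 1 fell. These calls are to be read against the 21.8% of all probe sets. *OYE3* rose with nystatin by 0.60 and *GND1* by 0.34, and each was higher again with CdS QDs, also against nystatin (adjusted p = 1.03e-06 and 5.21e-06). Some genes belong to more than 1 list (*HYR1*, *GPX1*, *GPX2*, *SRX1*, *CCP1*, *SOD2*, *MXR2* and *POS5*).

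**Figure D5:**
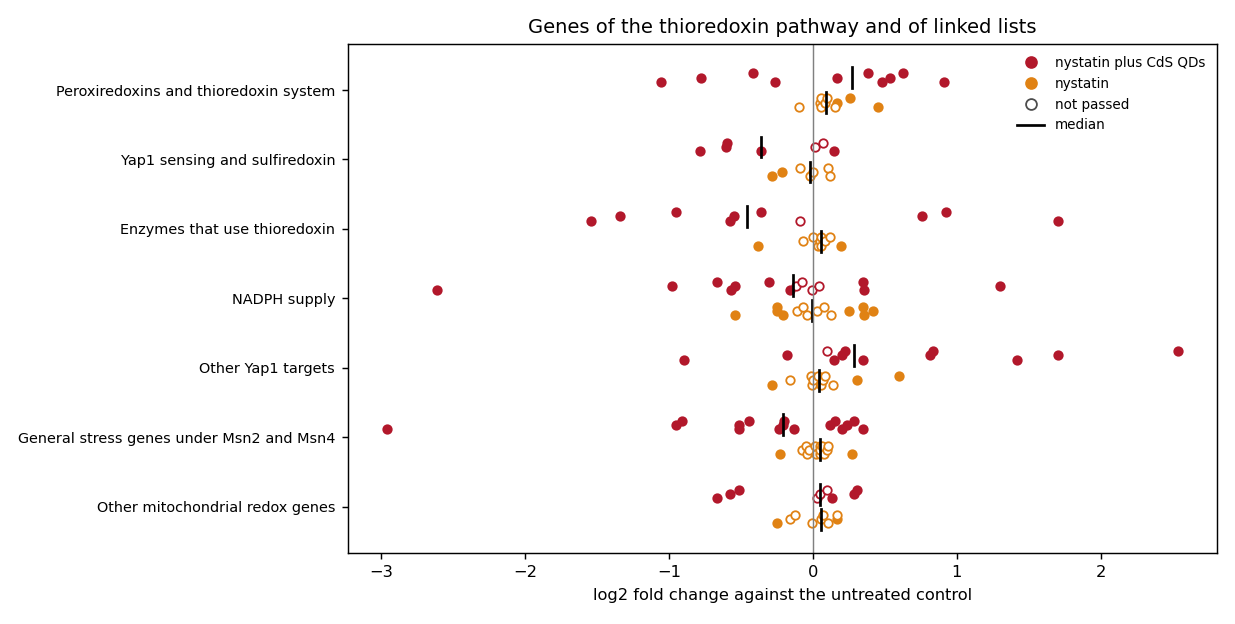
Log2 fold changes against the untreated control of the 10 genes and of the genes of 6 linked lists, with nystatin plus CdS QDs in red and nystatin in orange; open points did not pass an adjusted p of 0.05 and black bars are medians of the list. The median with nystatin plus CdS QDs was 0.27 for the 10 genes, 0.29 for the other Yap1 targets and −0.36 for the Yap1 sensing genes.

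The strain and RNA were checked on the same arrays. Of the genes deleted in BY4742, *LYS2* and *URA3* lay below the background on all arrays (0.92 to 1.30) and *LEU2* near it (1.29 to 2.29), whereas *HIS3* was at 7.84 to 8.63. Whether the *HIS3* probes lie within the part that is missing was not tested. With nystatin plus CdS QDs *LEU2* rose by 0.55 (adjusted p = 0.00319), *LYS2* fell by 0.21 (0.00368) and *HIS3* by 0.68 (5.48e-05). *URA3* did not pass. With nystatin alone *LYS2* fell by 0.20 (adjusted p = 0.0204) and *URA3* by 0.23 (0.0116), and *LEU2* and *HIS3* did not pass. Values at or near the background can thus pass the threshold too, which 75.4% and 21.8% of all probe sets passed in these comparisons. The alpha-specific *MF(ALPHA)1*, *MF(ALPHA)2*, *STE3* and *SAG1* had 5.22 to 9.61 on the 6 arrays. The a-specific *MFA1*, *MFA2*, *STE2*, *STE6*, *BAR1* and *AGA2* had 3.57 to 6.48, and since levels of different probe sets are not comparable this does not tell the mating types apart. The array carries probe sets at the 3′ and at the 5′ end of control transcripts, and over 7 of them the mean log2 excess of the 3′ end was 1.58 and 1.58 with nystatin plus CdS QDs, 1.45 and 1.45 with nystatin, and 1.47 and 1.41 in the untreated control. It was thus higher on the arrays with CdS QDs, by 0.13, and its part in the changes of the 10 genes was not tested.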

How the data were processed

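The data are 6 GeneChip Yeast Genome arrays, 2 for each group. The log2 values were used as deposited: per the labels and the methods of the study, the authors made them in Affymetrix Expression Console by RMA, a method that subtracts background, brings all arrays to a common distribution by quantiles and reduces the probes of a set to a single value. A shift of most transcripts in 1 direction would therefore not be seen. Of 10928 probe sets, 5498 were paired with *S. cerevisiae* genes by the platform table and the gene table of R64. A further 1747 were listed in the platform table without a match in R64 and were taken as *S. pombe* probe sets. Of the others 213 were controls and 3470 without a gene in these tables. A gene is given by its brightest probe set.

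A linear model with a mean for each group was fitted with limma 3.58.1 under R 4.3.3 (3 residual degrees of freedom, prior degrees of freedom 3.80), two-sided, with adjustment over 5498 probe sets. Pairs of genes were compared by an exact permutation test over arrays. Members and gene lists were chosen with earlier results of these data known, and the pair *TSA2* and *TSA1* and the neighbouring genes were added after their values had been seen. All 10 genes are named. Genes of the lists were named from the 6 with the smallest adjusted p with nystatin plus CdS QDs, for their role, or as the highest of a list. Not all of these 6 are named: *TPS2*, *GSY2* and *DDR2* of the stress genes and *IDP2* of the NADPH genes, which fell, are left out. Genes most like a member (3 for each that changed by at least 0.5) were named by Euclidean distance of centred log2 values. The fit was tested on simulated data. There, 200 of 5498 probe sets were changed in the comparison of nystatin plus CdS QDs with the untreated control. The fit found 92.5% of these 200 together at an adjusted p under 0.05 and called 7 unchanged ones. On the real arrays 75.4% passed in this comparison, and recovery at such a share was not tested. The 92.5% is not split by size of change, so it does not give the recovery at the sizes seen for the 10 genes. Recovery of changes as small as that of *TRX1* (0.17), or as those of the 10 genes with nystatin alone, was not tested. The number of arrays limits the precision. Figures were made with matplotlib 3.10.9. No sequences were used here, and coordinates served only to order the genes along their chromosomes.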

Additional observations from a re-analysis of the deposited data

How the results depend on the processing

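The fits were repeated with a trend of variance on intensity, without moderation, on only the 4 arrays compared, on all probe sets, with a filter on dim ones, after a second quantile normalization or median centring, with the replicate number as a block, and without each array in turn. They were also repeated on the mean over a gene's probe sets, which for the 10 genes is the same value. Only the second normalization and the centring could reverse a direction. Without overlap between groups a left-out array could not reverse it, and the remaining settings leave the difference of group means unchanged. All 30 fold changes of the 10 genes kept their direction, and 426 of 450 repeats kept their side of the threshold, 16 lost it and 8 gained it. With nystatin against the untreated control, 3 genes were called, 1 without moderation and 0 when all probe sets were tested (4 of the 10 at an unadjusted p under 0.05), where 0.476% of 10928 probe sets passed; 1 to 4 were called with each array left out. The other counts were 9 to 10 with each array left out, for nystatin plus CdS QDs against either of the other groups. With all 6 arrays, 75.4% (against untreated control) and 75.0% (against nystatin) of all probe sets passed there, and 21.8% with nystatin against the untreated control. The shares of all probe sets without moderation or with arrays left out are not given here, so these counts do not set the 10 genes apart. The cytosolic minus mitochondrial median ranged with arrays left out from 0.89 to 0.96 (nystatin plus CdS QDs against untreated control), 0.080 to 0.13 (nystatin against untreated control) and 0.67 to 0.71 (nystatin plus CdS QDs against nystatin), and as a mean of the members the last 2 were 0.18 and 0.73. The near-zero pair differences with nystatin changed sign with an array left out: *TRX3* minus *TRX1* (0.033) ranged from −0.0084 to 0.074, and *TRR2* minus *TRR1* (−0.0011) from −0.061 to 0.059.

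Arrays with the same replicate number did not deviate together (correlations of 0.025, 0.0083 and −0.051), so the numbers were not taken as pairs. With the replicate block 10, 3 and 9 genes were called, the same counts as without it. Without the block 75.4%, 21.8% and 75.0% of all probe sets passed in these comparisons, and the shares with it are not given here.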
